A study of Caenorhabditis elegans with 4 samples.

Results

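The regions described here were the autosomal DPY-28 peaks of the whole-series list that overlapped, by at least 1 bp, a peak of both ChIP replicate lists. There were 249 of them among 1763 autosomal peaks, or 14.1% (exact 95% interval 12.5 to 15.8%), and among 10867 peaks in all. Replicate support chose them, so this share is a description and carries no test. On X, 1540 of 9098 peaks, or 16.9%, met the same rule. The members lay on all 5 autosomes of Caenorhabditis elegans and together were 183 kb long.

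DPY-28 is a subunit of condensin, a ring-shaped complex of SMC and non-SMC proteins that loops and compacts DNA. In C. elegans it belongs to condensin I, which acts on every chromosome in mitosis and meiosis, and to the dosage compensation complex, which binds both X chromosomes of hermaphrodites and lowers their transcription. Both complexes contain DPY-26, CAPG-1 and MIX-1 as well, and they differ in SMC-4, which is replaced by DPY-27 in dosage compensation. The antibody recognises DPY-28 itself, so the peak lists do not tell these complexes apart, and no other subunit was measured.

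The 2 ChIP samples were precipitated with an affinity-purified rabbit antibody against DPY-28, and the 2 input samples were DNA kept from such extracts without precipitation. All came from wild-type N2 embryos, mixed in stage and in sex, for which the labels give 20 °C, and which were fixed in 2% formaldehyde for 30 min. Whole embryos were used, so a peak cannot be assigned to a tissue, stage or sex. The labels do not say whether replicates came from separate cultures. Peak positions are those of WormBase WS220, and scores are the peak caller's own values as the authors deposited them. The scales of the 3 lists differ or are not named, so a score is compared only with others of its list. Read depth is unknown, and no background from input could be set beside a peak. Regions are not replicates of a condition and were chosen from the lists that scored them, so no test between groups of regions was made.

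Members were the high end of the autosomal list. Their whole-series scores ran from 1.31 to 56.85 with a median of 17.15, against medians of 5.85 for the 633 autosomal peaks supported by replicate 1 only, 8.88 for the 299 supported by replicate 2 only and 4.44 for the 582 found in neither. Of the 50 highest scoring autosomal peaks, 45 were members. From the lowest to the highest slice of 20% of the autosomal list, the share of members was 2.27%, 1.70%, 6.25%, 11.9% and 48.4%. The highest slice still held 112 peaks found in replicate 2 only, 51 found in replicate 1 only and 19 found in neither. Members were also longer, with a median of 458 bp, against 257 bp for replicate 1 only, 288 bp for replicate 2 only and 188 bp for neither. Peaks over 2 kb were 15 of the 249 members, 7 of the 633 found in replicate 1 only, 2 of the 299 found in replicate 2 only and 0 of the 582 others. A longer peak can overlap another peak more easily under a 1 bp rule, and the part of length in this pattern was not tested. The X peaks found in both replicates had a median whole-series score of 33.19 and a median length of 572 bp.

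**Figure D1:**
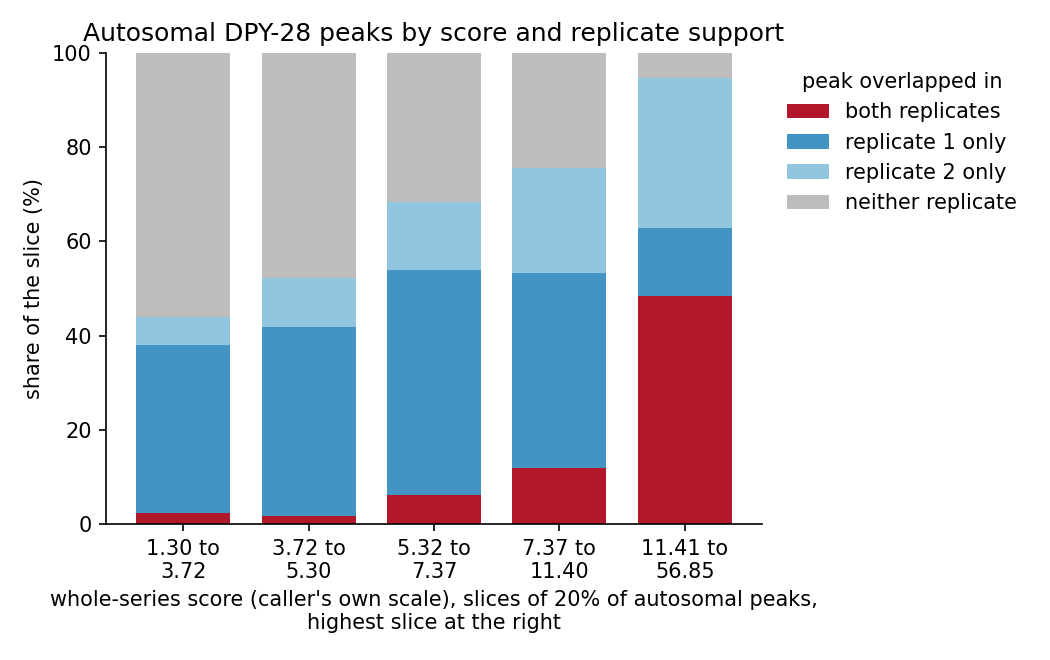
Share of autosomal whole-series peaks (y axis, %) by replicate support in 5 slices of the list by whole-series score (x axis, caller's own scale, lowest slice at the left). Members, found in both replicates, make up 48.4% of the highest slice and 2.27% of the lowest.

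The 3 lists placed the same region alike, which the overlap rule favours. The midpoint of a member lay a median of 46.5 bp from the midpoint of its highest scoring replicate 1 peak and 42 bp from that of its replicate 2 peak. The distance was at most 100 bp for 178 members in replicate 1 and for 182 in replicate 2. The part common to all 3 intervals had a median of 391 bp and was at least 100 bp in 240 members. In 1 member, II 6951433 to 6951655, the replicate peaks each overlapped the whole-series peak but left no base common to all 3. Replicate 2 intervals were the broad ones: 203 members lay wholly inside their replicate 2 peak, and 99 lay wholly inside their replicate 1 peak. Neighbouring members could fall under the same replicate peak, so the 249 members had 218 different best partners in replicate 1 and 214 in replicate 2. Counting every overlap, they touched 224 replicate 1 peaks, or 16.2% of the autosomal peaks of that list, and 215 replicate 2 peaks, or 42.9%.

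Few members sat at the edge of the 1 bp rule. The smallest overlap was 46 bp, for I 1712255 to 1712495 (whole-series score 11.71) with its replicate 1 peak, and 9 members had an overlap under 100 bp in one of the lists. Just outside the rule, I 9989114 to 9989261 (score 4.92) missed a replicate 1 peak by 9 bp and IV 6359408 to 6360232 (score 8.39) by 24 bp. III 396197 to 396424 (score 7.68) came nearest among the peaks found in replicate 1 only, 128 bp from a replicate 2 peak. Most peaks with a single replicate were far from the other list. The median distance was 58.2 kb to a replicate 2 peak for those in replicate 1 only. It was 26.2 kb to a replicate 1 peak for those in replicate 2 only. The replicate 2 list held 501 autosomal peaks and the replicate 1 list 1384. A shorter list lies farther away at the same spread, so these distances do not compare the 2 classes. When the overlap had to be 50% of the shorter peak, 247 members were left. When it had to be 50% of each peak, 152 were left, because peaks of unequal length then fail.

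The highest scoring members took 2 forms, short isolated peaks and long or crowded ones. III 10461038 to 10461396 had the highest whole-series score of any autosomal peak, 56.85, over 359 bp. Its replicate 1 peak scored 131.02 and its replicate 2 peak 464.24, which ranked 542 of 1384 and 50 of 501 autosomal peaks. III 6133281 to 6133676 scored 51.15 over 396 bp and had the opposite balance, with 1012.8 in replicate 1 (rank 66) and 139.29 in replicate 2 (rank 208). V 13868750 to 13869167 scored 49.74 and was alike, with 1542.5 in replicate 1 and 166.58 in replicate 2. V 11313998 to 11314495 scored 48.17, with 177.44 in replicate 1 and 485.69 in replicate 2. Each of these 4 ranked 66 or higher among the autosomal peaks of one replicate list and 176 or lower in the other. Of the 45 members among the 50 highest, 21 had no other member within 10 kb.

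On IV, the highest members had strong peaks in both lists. IV 14032550 to 14034434 scored 55.03 over 1885 bp, with 834.33 in replicate 1 and 1144.68 in replicate 2. IV 11325929 to 11326410 scored 46.42, with 1183.63 and 369.75 in replicates 1 and 2. IV 11070849 to 11072570 scored 38.47, with 2629.04 and 400.29. IV 11338371 to 11338842 scored 35.94, with 956.27 and 338.62. All 4 lay within the highest 81 autosomal peaks of replicate 1, and their ranks in replicate 2 were 15 to 80.

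Elsewhere the leading members were mostly short. On II, II 11960622 to 11960895 scored 44.81 over 274 bp while its replicate 1 peak, at 53.79, stood close to that list's lowest score of 50.01, and its replicate 2 peak scored 213.42. II 5844638 to 5844971 (38.44) and II 5543419 to 5543829 (31.91) had the same balance, with 85.42 and 97.57 in replicate 1 and 281.37 and 366.36 in replicate 2. By rank these were 812 and 734 of 1384 autosomal peaks in replicate 1, and 101 and 74 of 501 in replicate 2. II 11960622 to 11960895 ranked 1262 and 136 in replicates 1 and 2. II 4130129 to 4130540 (32.28) had 976.52 (rank 68) in replicate 1 and 98.25 (rank 284) in replicate 2. On I, I 10130491 to 10133129 led with 43.99 over 2639 bp, with a best replicate 1 score of 284.23 and a replicate 2 score of 3100. I 8259285 to 8259677 (36.27) had 122.73 (rank 585) in replicate 1 and 356.3 (rank 76) in replicate 2. I 9382811 to 9383287 (36.02) had 1010.03 (rank 67) in replicate 1 and 153.6 (rank 192) in replicate 2. On III, III 10758980 to 10759294 (33.13) had 113.55 (rank 630) in replicate 1 and 263.09 (rank 107) in replicate 2. V 19642996 to 19643292, next on V at 44.35, had 79.63 (rank 865) in replicate 1 and 299.72 (rank 93) in replicate 2. Short leading members of either balance thus occurred on I, II, III and V.

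Over all members the replicate 1 scores ran from 50.25 to 3100 with a median of 162.04, and the replicate 2 scores from 50.2 to 3100 with a median of 196.81. The score of 3100 was a tie: 13 autosomal replicate 1 peaks had exactly this value and none a higher one, so their order is not known. Only some of these 13 were the best partner of a member, and 22 members had such a partner. In replicate 2, 2 autosomal peaks had the score of 3100 and 1 scored higher. The medians over all autosomal peaks were 102.59 in replicate 1 and 112.63 in replicate 2. The Spearman rho between the replicate scores was 0.65 across the 249 members, which include members under the same replicate peak. It was 0.48 without the 44 members in loci of 4 or more, described below, and 0.52 with the highest scoring member of each of the 177 loci. By score among the autosomal peaks of each list, 81 members were in the upper 25% of both lists, and 46 were below the median of both. The 81 lay in 40 loci and had a median length of 1030 bp and a median whole-series score of 29.14, while the 46 lay in 43 loci and had medians of 268.5 bp and 8.8. In 15 members the replicate 1 peak was in the upper 25% and the replicate 2 peak below the median, and in 17 members it was the other way round. The 17 had a median whole-series score of 20.33 and the 15 one of 10.97.

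**Figure D2:**
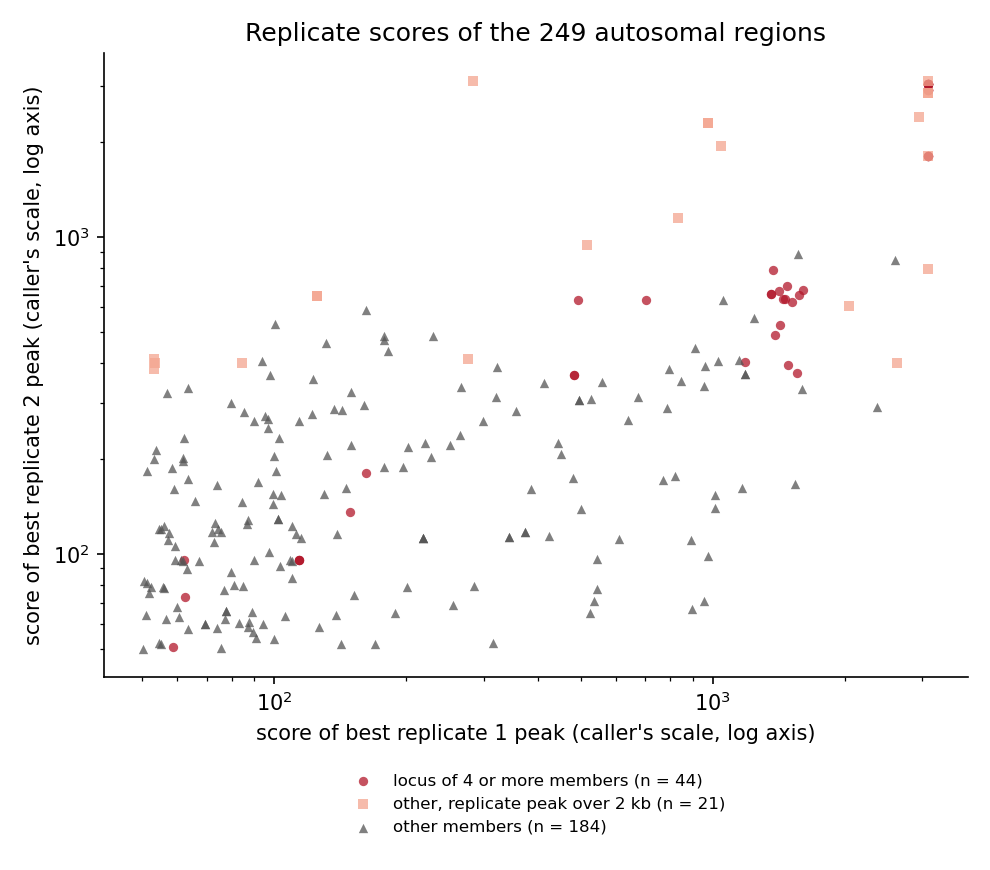
Score of the best overlapping replicate 1 peak (x axis) against that of the best replicate 2 peak (y axis) for each of the 249 members, both on log axes in the caller's own scale. The 44 members in loci of 4 or more and the 21 others with a replicate peak over 2 kb include all 22 members at the tied score of 3100 in replicate 1 (17 and 5 of them), and the 184 remaining members spread widely below it.

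Members were crowded in some places and alone in most. With members less than 10 kb apart joined, the 249 formed 177 loci, of which 143 held 1 member, 27 held 2 or 3 and 7 held 4 or more. Thus 106 members, or 42.6%, had another member within 10 kb, and the share was 37.3% within 2 kb. Within its own class, the share with another peak inside 10 kb was 58.3% for the 633 peaks found in replicate 1 only. It was 34.1% for the 299 found in replicate 2 only and 22.5% for the 582 found in neither. A larger class has nearer neighbours at the same spread, so these shares do not rank the classes by crowding. For members the share was 23.3% when whole-series peaks less than 500 bp apart were merged first. The lone members had a median whole-series score of 14.71 and medians of 100.87 in replicate 1 and 138.31 in replicate 2. The 44 members of the 7 large loci had medians of 28.84, 1480.38 and 660.22 in the same order. These replicate medians count a shared replicate peak once for each member under it. In the largest locus, for example, 17 members had 4 different best partners in each list.

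The largest locus, V 17115392 to 17132121, held 17 members in 16.7 kb with no other whole-series peak between them. Its members scored from 5.43 to 41.25 in the whole-series list. It contained 10 peaks of 700 bp or more, which were alike, from 797 to 903 bp long and scoring from 38.9 to 41.25. Of the 9 steps between their midpoints, 7 were of nearly one size, 950.5 to 1017.5 bp with a median of 978 bp, and the others were 2403 and 3524.5 bp. The replicate lists showed long unbroken peaks there. In replicate 1, the peak V 17119789 to 17126674 (score 3100) spanned 8 members and V 17128101 to 17132158 (3100) spanned 5. In replicate 2, the peak V 17119860 to 17127588 (3038.17) spanned the first 8 and V 17127857 to 17132213 (2919.21) the next 5. The named members V 17125131 to 17125933 (41.25) and V 17124157 to 17124985 (40.98) lay under the peaks that spanned 8.

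The locus II 13817617 to 13828622 held 7 members in 11 kb, also with no other peak between them. Its 6 long members were 1063 to 1145 bp and scored 24.59 to 32.16, and the steps between their midpoints were 1534.5 to 1895 bp. Here each member had its own peak in both replicate lists. Those of the 6 long members scored 1385.23 to 1606.87 in replicate 1 and 492.11 to 702.31 in replicate 2, a narrow range in each list. The 7th member, II 13828101 to 13828622, was lower, at 10.48, with 148.33 in replicate 1 and 135.97 in replicate 2.

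**Figure D3:**
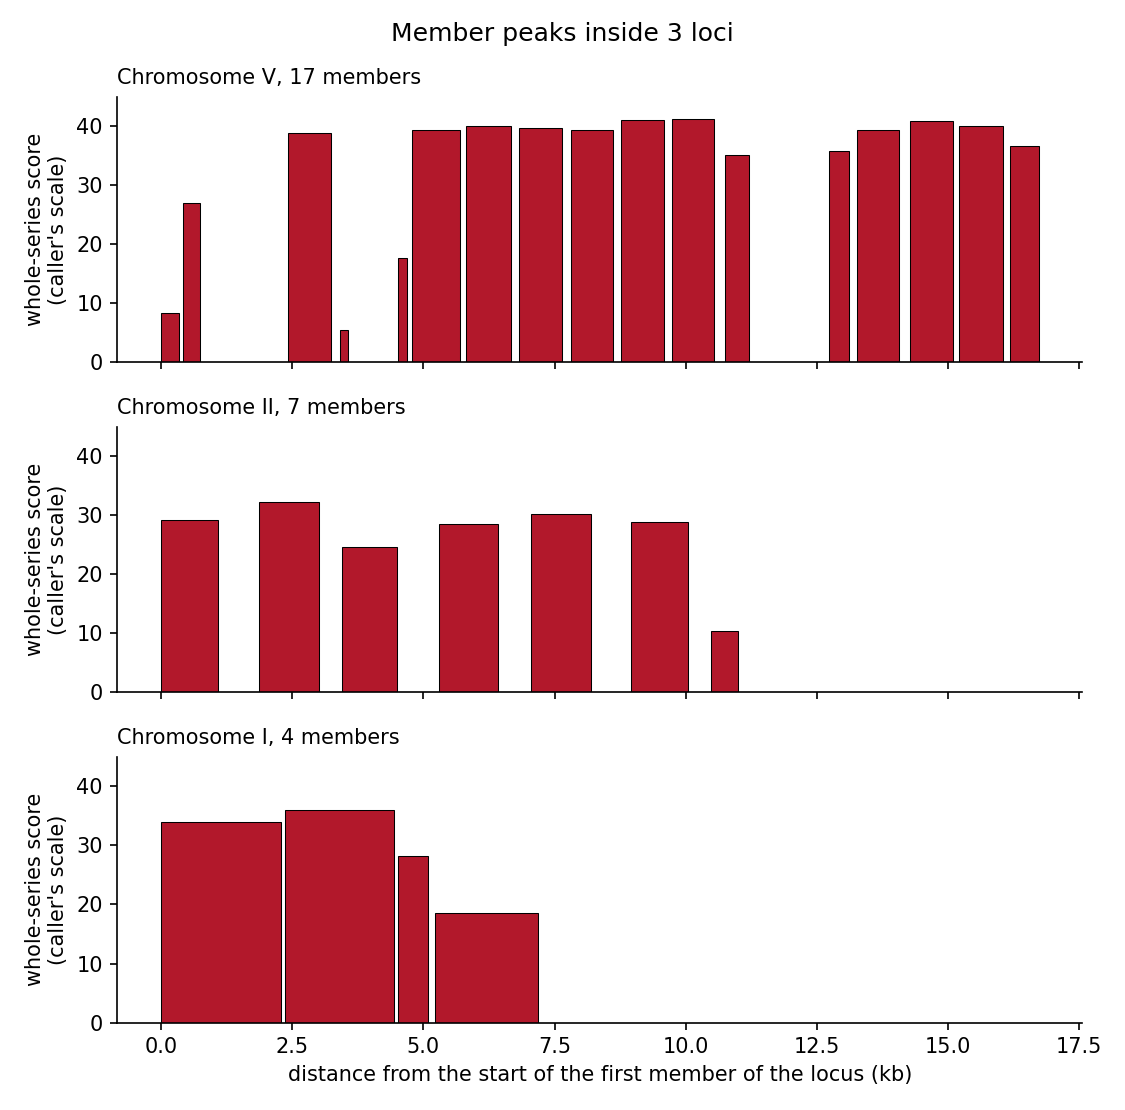
Whole-series score (y axis, caller's own scale) and extent of each member (bar width) against the distance from the start of the first member (x axis, kb) in the loci of 17 members on V, 7 on II and 4 on I. On V the 10 bars of 700 bp or more are of nearly equal height. Of the 9 steps between their midpoints, 7 are 950.5 to 1017.5 bp, with a median of 978 bp. Narrower bars on V score from 5.43 to 36.61 and are not counted in these steps. On II 6 bars of 1063 to 1145 bp recur.

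A pair of loci on V resembled the one on II. V 8889421 to 8898541 held 4 members of 1060 to 1082 bp, with 3 other whole-series peaks between them. The 4 scored 26.13 to 33.55, with 1421.9 to 1575.94 in replicate 1 and 393.85 to 658.38 in replicate 2. In V 8847340 to 8863158, 3 of the 4 members were 1030 to 1071 bp long, with 1186.65 to 1555.43 in replicate 1 and 372.49 to 784.48 in replicate 2, and the fourth, V 8862809 to 8863158, was lower, at 58.55 and 50.81. Looking for this length over all autosomes, chosen after these values were seen, found 23 members of 1000 to 1200 bp, or 9.24% of the 249. The other classes held 2 of 633 (replicate 1 only), 4 of 299 (replicate 2 only) and 0 of 582 (neither). Of the 23, 9 lay on V, 7 on II, 6 on IV and 1 on III, and all 23 had another member within 10 kb. Their replicate 1 scores had a median of 1374.06 and exceeded 1000 in 15, and their replicate 2 scores had a median of 528.1. The 23 include the 6 long members of the II locus and the 4 and 3 members of these V loci, from which the length was taken. The count and scores of the 23 are thus partly those of the members that set the length. On IV, replicate 1 exceeded 1000 in 2 of 6, with a median of 661.11, and the 1 member on III scored 124.84.

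The other large loci differed in form. I 10945879 to 10953057 held 4 members of 564 to 2279 bp under 1 peak in each replicate list, scoring 3100 in replicate 1 and 1804.09 in replicate 2. II 11746643 to 11761555 held 4 members scoring 6.8 to 20.7, spread over 14.9 kb. III 13243628 to 13244799 held 4 short members of 177 to 269 bp, scoring 1.31 to 5.48, among them the lowest scoring member of all, III 13244589 to 13244799. Crowding therefore occurred at high and at low scores.

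All 5 autosomes carried a member that began at their first base. It was 454 bp long on I, 400 bp on II, 218 bp on III, 226 bp on IV and 349 bp on V. Their whole-series scores were 38.47, 30.55, 4.29, 8.95 and 19.89 from I to V. In replicate 1 they scored 1563.14, 675.54, 383.77, 442.41 and 784.77, and in replicate 2 881.71, 313.47, 160.24, 223.44 and 288.78, in the same order. The order of the 5 was nearly kept between lists, with I highest and III lowest in each. No autosomal peak of the other classes began at base 1, and both replicate lists had 5 such peaks. On X, 1 peak found in both replicates also began at base 1. Among members, right ends did not match left ends. By the chromosome sizes used here, no member lay within 10 kb of the right end of II, III, IV or V. Each size was set by the peak that reached farthest right, so some list does have a peak at each of these ends. Which lists hold these peaks was not examined, so the contrast is one of members and not of single lists. Near the right end of I lay the longest member, I 15060233 to 15071363 (11131 bp, score 38.47), whose peak scored 3100 in each replicate list and ended at nearly the same bases, 15060286 to 15071350 in replicate 1 and 15060168 to 15071371 in replicate 2.

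The next longest members were IV 8575139 to 8581732 (6594 bp, score 34.01), I 13404304 to 13408425 (4122 bp, 24.76), III 5353026 to 5356548 (3523 bp, 33.11) and V 17308520 to 17311609 (3090 bp, 34.86). Their replicate 1 scores were 3100, 1042.62, 3100 and 3100 and their replicate 2 scores 794.25, 1941.32, 2840.37 and 1799.69. The III member adjoined III 5356609 to 5358522 (35.2) under the same replicate peaks. In all, 40 members had a replicate peak over 2 kb, in 18 loci; they were 16.1% of the members and 41.8% of their summed length, with a median whole-series score of 34.33, against 15.11 for the 209 others. Members with both replicate peaks among the 50 highest autosomal peaks of their list numbered 39, in 14 loci, and 24 of them had such a long peak. Among these outside the large loci were I 5152525 to 5153937 (35.65; 2606.07 in replicate 1 and 848.27 in replicate 2), V 5283236 to 5285873 (34.65; 2955.59 and 2394.67), IV 12316342 to 12319339 (17.15; 2044.07 and 605.94) and IV 11400336 to 11401471 (26.13; 1241.61 and 553.31).

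As background, C. elegans carries its 5S ribosomal RNA genes as a tandem array on V, its large ribosomal RNA genes as a tandem array at the right end of I, telomere repeats at each chromosome end, and clusters of replication-dependent histone genes on several chromosomes. Which genes or repeats lie at the regions above was not analysed here, because the gene table at hand is of another build than the peak lists. How reads that match several positions were treated is not given in the sources used here, and the part of repeated DNA in these peaks was not tested.

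Between chromosomes, members per Mb ranged from 2.54 to 3.30. The density was 2.85 per Mb on I (43 members), 2.95 on II (45), 2.54 on III (35), 3.26 on IV (57) and 3.30 on V (69), and 3.02 over all autosomes. Members were 11.4% of the autosomal peaks of III and 17.8% of those of V, with the other chromosomes between. The exact 95% intervals were 8.07 to 15.5% for III and 14.1 to 22.01% for V. They take peaks as independent, which neighbours are not, and 17 of the 69 members of V were in 1 locus. Whether the shares of III and V differ was not tested. Counted as loci, V had the lowest density, 1.82 per Mb, and I the highest, 2.59. Median replicate 1 scores were higher on IV (412.02) and V (372.04) than on I (101.96), III (113.47) and II (148.33), and those of replicate 2 ran from 124.21 on I to 295.8 on V.

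Along the chromosomes, each cut into 3 equal lengths called left arm, centre and right arm, left arms held fewer members than centres and right arms. There were 51 members in left arms, 99 in centres and 99 in right arms, or 1.85, 3.60 and 3.60 per Mb. In the same order, peaks found in replicate 1 only numbered 220, 164 and 249, those in replicate 2 only 86, 130 and 83, and those in neither 173, 209 and 200. The right arm held more than the left on each of the 5 autosomes, most clearly on II (27 against 6) and V (31 against 10). Of the 44 members in large loci, 36 lay in right arms, 8 in centres and 0 in left arms. Without them the counts were 51, 91 and 63, and the right arm exceeded the left on 3 autosomes, so the equal counts of centres and right arms rested on those loci. On IV the centre led, with 30 members, against 13 in the left arm and 14 in the right.

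**Figure D4:**
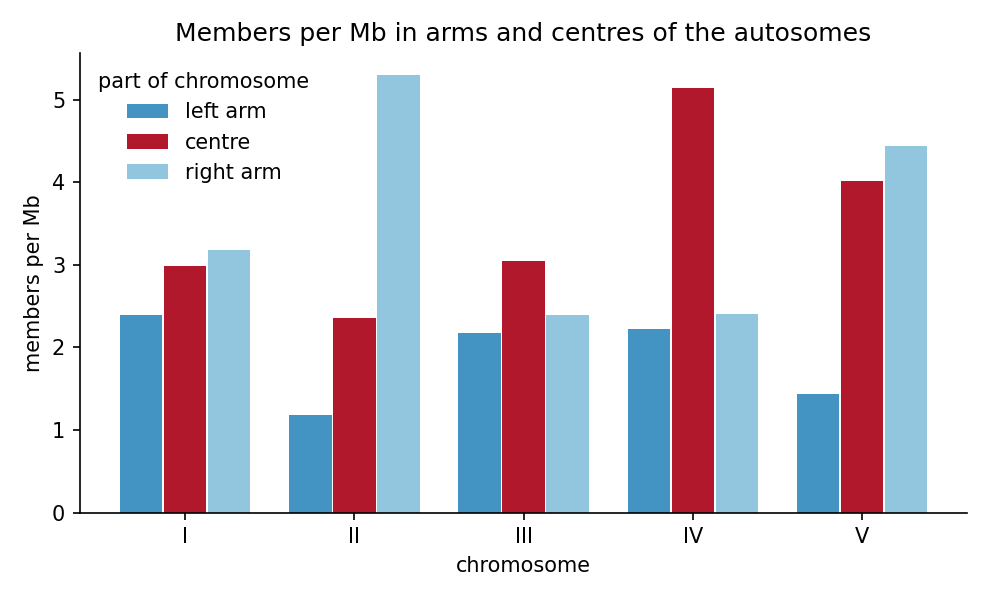
Members per Mb (y axis) in the left arm, centre and right arm of each autosome (x axis), 3 equal lengths. The right arm of II holds 5.30 per Mb and the centre of IV 5.14, and the left arm of II holds 1.18.

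With left and right arms pooled, members had 2.73 per Mb on arms and 3.60 in centres, a ratio of 0.76. Arms held 60.2% of the members (exact 95% interval 53.9 to 66.4%), against 74.1% of the peaks found in replicate 1 only (70.5 to 77.5%), 56.5% of those found in replicate 2 only (50.7 to 62.2%) and 64.1% of those found in neither (60.0 to 68.0%). The intervals cover counting error only and take peaks as independent, which neighbours are not. Position was not used to choose the members. The ratio was 0.63 without the large loci and 0.75 with 1 member per locus. It was 1.18 over all autosomal peaks found in replicate 1, with or without replicate 2, and 0.70 over all those found in replicate 2.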

How the data were processed

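The submitters' processing notes name BWA and ce10. Per the file headers, coordinates are those of WormBase WS220. Each deposited list gives peak positions and the caller's score; lists of the ChIP samples name MACS, and the whole-series list names MACS v2. For caller versions, thresholds, read numbers and the use of input, no source used here gives a value. Overlaps, lengths, midpoints (1-based positions) and ranks were computed from the lists as deposited, and each member was paired with its highest scoring overlapping peak in each replicate. Chromosome size was the last peak end in any list. Shares have exact (Clopper-Pearson) intervals. Overlap and merging were tested on simulated lists. Python 3.11.15, numpy 2.4.6, pandas 2.3.3, scipy 1.17.1 and matplotlib 3.10.9 were used.

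The members, lists and settings were chosen with earlier results of these data known. Regions were named by rule: the 5 highest scoring members per autosome, the 5 longest, those with both replicate peaks among the 50 highest autosomal peaks of their list, those under the 3 replicate peaks that span most members, and those at the limits of score or overlap. Large loci, chromosome starts, the 1000 to 1200 bp group and pairs high in one list were described after their values were seen. Alternatives were other overlap rules, the upper 50% by score, 1 replicate, merging, leaving out long peaks and chromosome ends, other distances and another centre.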

Additional observations from a re-analysis of the deposited data

How the results depend on the processing

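Requiring 50% of the shorter peak changed none of the 14 values beyond their counting intervals. Requiring 50% of each peak gave 152 members (8.62% of autosomal peaks), 1.73, 1.90, 1.38, 2.17 and 1.91 per Mb from I to V, 22.4% within 10 kb of another, and midpoint offsets of 31.5 and 29.75 bp in replicates 1 and 2. In the upper 50% by score the share was 25.7%. Merging peaks less than 500 bp apart gave 2.44 per Mb on V, 23.3% within 10 kb and an offset of 38.25 bp in replicate 2. Without partners over 2 kb and chromosome ends, V had 2.39 per Mb, 34.98% lay within 10 kb and rho between replicate scores was 0.54. Added after the data were seen, leaving out loci of 4 or more gave 11.9%, 2.10 per Mb on V, 30.2% within 10 kb and rho 0.48; 1 member per locus gave 10.5%, 2.16, 2.29 and 1.82 per Mb on II, IV and V, a median length of 418 bp, 0% within 10 kb by construction, and rho 0.52. A centre of the middle 50% gave an arm to centre ratio of 0.79. The overlap, score, long-peak and locus settings only take members away; beyond that, the cause of a move was not tested.

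With only 1 replicate list required (replicate 2 or replicate 1), members numbered 548 to 882 (31.1 to 50.03%), with 6.77 to 10.3 per Mb on I, 6.81 to 10.9 on II, 7.55 to 9.43 on III, 6.29 to 12.7 on IV and 6.12 to 9.99 on V. In the same order, the median score was 11.9 and 6.985, the median length 339.5 and 291 bp, and the share within 10 kb 43.6 and 58.2%. The offsets were 46.5 and 70.0 bp (replicate 1) and 41.5 and 42 bp (replicate 2), and the arm to centre ratio 0.70 and 1.18. Only members found in both lists have a peak in the list not required. The offsets of 46.5 bp in replicate 1 and 42 bp in replicate 2 are therefore those of the 249, unchanged by construction.

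Other chromosome sizes, gene classes and motifs were not run, since they need a reference of the lists' build. No paired analysis was possible because peaks of input were not analysed here. Unknown depth limits all values: a missing replicate peak is not absence of binding.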
